A study of Homo sapiens with 64 samples.

Results

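TGF-beta, inhibin and BMP signalling in adrenal cells was described here by 10 genes of the 26364 listed. They were BMP4 and INHA (ligand genes), TGFBR1 and ACVR1B (type I receptors), TGFBR2 and ACVR2A (type II receptors), TGFBR3 (a co-receptor), SMAD2 and SMAD3 (receptor-regulated SMADs) and SMAD7 (an inhibitory SMAD). They were taken by name from the count tables and were chosen by measured values in part, since TGFBR3 was lower and BMP4 higher with siRNA-2, 1 of 2 siRNAs against NNT. Their values with siRNA-2 are therefore given as a description and carry no test. All 10 passed the filter on low counts.

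Ligands of this family bind a pair of type II and type I receptor kinases at the cell surface. The type I receptor then phosphorylates receptor-regulated SMAD proteins, which enter the nucleus with SMAD4 and act on target genes: SMAD2 and SMAD3 carry signals of TGF-beta and activin, and SMAD1, SMAD5 and SMAD9 those of BMPs. In adrenocortical cells TGF-beta and BMP4 are known to restrain steroid synthesis. Inhibin opposes activin, and mice that lack Inha develop adrenocortical tumours after gonadectomy.

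Messenger RNA was measured in NCI-H295R, a human adrenocortical carcinoma line that makes steroids, in 16 libraries. NNT, the mitochondrial transhydrogenase that makes NADPH, was knocked down by RNA interference. An shRNA was used in 4 libraries, with scrambled shRNA in 3 as controls; other cells were harvested 72 h after transfection with siRNA-2, siRNA-3 or a scrambled siRNA (3 libraries each). All groups were 1 line, and the labels gave no allele and no agent beside the RNA delivered. Both siRNA groups were compared with the same 3 scrambled siRNA libraries, so those comparisons are not independent. The labels do not say whether each library had its own culture, and the p-values therefore rest on a library-to-library spread that may be technical. Libraries are named by group and by the code in their title.

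Libraries held 20148231 to 43992833 gene counts. NNT (chromosome 5, 43602692 to 43707405, plus strand, GRCh38) stood at 317 to 415 CPM (counts relative to the scaled library total) with the scrambled shRNA and at 28.7 to 34.6 CPM with the NNT shRNA. It fell by 3.54 on the log2 scale (SE 0.32, edgeR adjusted p = 2.36e-05). With siRNA-3 it stood at 31.8 to 47.8 CPM against 297 to 362 CPM with the scrambled siRNA, and fell by 3.13 (SE 0.35, adjusted p = 0.000172). With siRNA-2 the 3 libraries stood apart from each other, at 233 CPM (11-12), 187 CPM (16-1) and 49.9 CPM (11-1). Library 11-1 also had the highest share of reads in no gene, 16.5%, beside 15.2% in scrambled siRNA library 23-5 and 11.3% in the lowest, scrambled siRNA library 30-11. Log2 fold changes with siRNA-2 are given with and without library 11-1. That of NNT was -1.11 (SE 0.32) with siRNA-2, given with no test, -0.68 without library 11-1 and -1.51 without library 11-12. All 8 adrenocortical markers were detected, with a summed level of 1324 to 2396 CPM. In this sum the siRNA-3 libraries, at 2175 to 2396 CPM, lay above all others (scrambled siRNA 1457 to 2027 CPM). Singly, CYP17A1 (353 to 436 against 130 to 224 CPM), CYP21A2 (234 to 324 against 137.5 to 197 CPM) and MC2R (12.6 to 21.95 against 7.12 to 12.45 CPM) lay above the scrambled siRNA libraries. STAR, CYP11A1, HSD3B2, NR5A1 and FDX1 overlapped them. The 8 chromaffin or neural markers summed to 33.0 to 71.6 CPM, mostly from CHGB and SYP, while PNMT, which defines adrenaline-making chromaffin cells, had no count. The 6 fibroblast markers summed to 0.867 to 13.5 CPM. The 5 endothelial markers summed to at most 0.456 CPM and the 5 leukocyte markers to at most 1.87 CPM. In bulk RNA, fewer cells of a type and less RNA per cell cannot be told apart.

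The promoters of BMP4, TGFBR3 and SMAD7 are shown because BMP4 and TGFBR3 differed most between groups and SMAD7 is a textbook target of SMADs. They are RefSeq windows of 300 bases in GRCh38.p14, from 250 bases before to 50 bases after a start, all on the minus strand and written 5′ to 3′, at chr14:53955001-53955300 for BMP4 (the first of its 3 windows), chr1:91886102-91886401 for TGFBR3 (its only window) and chr18:48950916-48951215 for SMAD7 (the first of 3). Capitals mark the SMAD box CAGAC, or GTCTG on the other strand, the palindrome GTCTAGAC, which contains no box in full, and the GC-rich element GGCGCC.
BMP4: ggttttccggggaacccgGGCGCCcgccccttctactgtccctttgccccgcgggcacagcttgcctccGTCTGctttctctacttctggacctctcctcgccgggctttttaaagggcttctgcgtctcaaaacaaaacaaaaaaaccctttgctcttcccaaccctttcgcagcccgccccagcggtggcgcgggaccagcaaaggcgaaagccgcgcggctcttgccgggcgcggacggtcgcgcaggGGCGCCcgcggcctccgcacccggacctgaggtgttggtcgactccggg
TGFBR3: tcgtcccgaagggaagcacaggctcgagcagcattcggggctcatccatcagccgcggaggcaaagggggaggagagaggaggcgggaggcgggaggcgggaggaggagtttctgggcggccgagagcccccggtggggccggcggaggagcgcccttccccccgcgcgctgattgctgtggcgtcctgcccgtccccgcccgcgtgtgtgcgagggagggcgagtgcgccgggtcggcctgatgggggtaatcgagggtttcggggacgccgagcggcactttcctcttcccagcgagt
SMAD7: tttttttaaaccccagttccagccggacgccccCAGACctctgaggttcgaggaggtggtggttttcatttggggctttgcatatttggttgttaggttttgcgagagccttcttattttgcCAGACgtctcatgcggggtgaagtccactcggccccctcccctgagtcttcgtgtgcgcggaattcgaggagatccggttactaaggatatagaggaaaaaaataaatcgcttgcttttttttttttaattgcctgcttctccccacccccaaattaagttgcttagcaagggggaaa
The BMP4 window held 1 SMAD box and 2 GC-rich elements, the SMAD7 window 2 boxes, and the TGFBR3 window none of the 3 motifs. Over the first window of each gene, 6 of the 10 genes had a box and 4 had a GC-rich element. Among 35116 RefSeq promoters of this length, 45.3% had a box, 19.2% the GC-rich element and 0.202% the palindrome. A match of letters is a description and not a binding site.

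The ligand BMP4 and the receptor TGFBR1 had the highest mean levels of the 10 genes per length of all annotated exons. Over the 16 libraries BMP4 had a mean level of 43.1 CPM per kb of exon (range 25.1 to 67.5) and TGFBR1 of 39.5 CPM per kb (34.3 to 49.3), so that they overlapped. TGFBR3 followed at 27.2, TGFBR2 at 26.4, ACVR1B at 17.5, SMAD3 at 12.9, SMAD2 at 5.55, ACVR2A at 3.50, INHA at 3.05 and SMAD7 at 2.77 CPM per kb. Neighbours in this order overlapped between libraries except SMAD3 with SMAD2 and SMAD2 with ACVR2A. The order depended on the length used. With the median coding transcript TGFBR1 ranked 1, SMAD3 ranked 2, SMAD2 ranked 3 and BMP4 ranked 4; for SMAD2 that transcript has 1378 bases and the longest one 34526 bases. The order also differed between groups. BMP4 led in both shRNA groups and with siRNA-2, whereas TGFBR1 led with siRNA-3 (47.2 ± 2.21 CPM per kb, SD, n = 3) and with the scrambled siRNA (40.0 ± 1.53 CPM per kb, SD, n = 3). TGFBR1 overlapped the next gene in both, TGFBR3 with siRNA-3 (44.1 ± 7.56 CPM per kb) and BMP4 with the scrambled siRNA (35.8 ± 4.04 CPM per kb). By the longest coding transcript BMP4 led with the scrambled siRNA too (48.05 against 42.05 CPM per kb for TGFBR1). With siRNA-3 BMP4 ranked 3 at 27.2 ± 1.97 CPM per kb (SD, n = 3), beside TGFBR2 at 26.6 ± 1.04 CPM per kb.

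Other genes of the pathway gave the setting at the same scale. TGFB1, the ligand of TGFBR2 and TGFBR1, stood at 23.5 CPM per kb, and GDF11, a ligand of activin receptors, at 17.9 CPM per kb. The highest receptor outside the 10 genes was AMHR2, the type II receptor of anti-Müllerian hormone, at 17.7 CPM per kb. Of the SMADs, SMAD5 stood at 19.6 and SMAD4 at 12.7 CPM per kb. TWSG1, a secreted modulator of BMPs, stood at 61.8 and LTBP1, which holds latent TGF-beta in the matrix, at 55.4 CPM per kb. ID2, a target of BMP signalling, stood at 163 CPM per kb, FKBP1A, which binds type I receptors, at 167.5 and STRAP, a receptor-associated protein, at 139.5 CPM per kb.

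**Figure D1:**
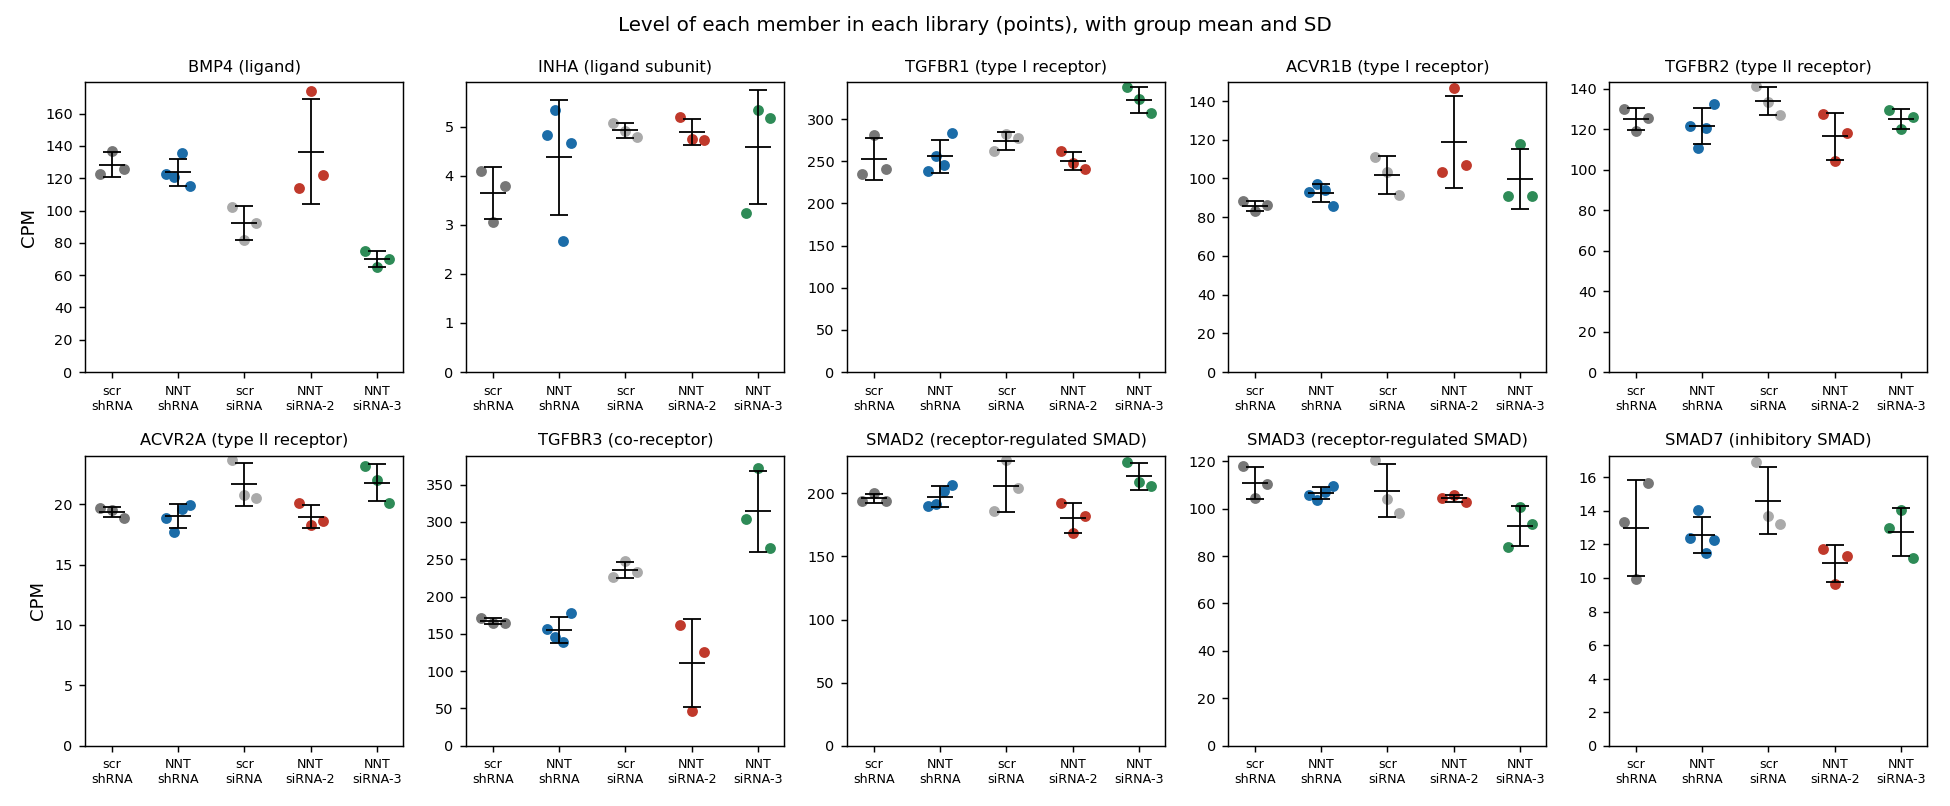
Each panel plots 1 of the 10 genes, with the level in CPM on the vertical axis from 0 and the 5 groups on the horizontal axis; points are libraries, and bars are the group mean and SD (n = 4 for NNT shRNA, 3 for the others). BMP4 was lowest and TGFBR3 and TGFBR1 highest in the siRNA-3 libraries, and the siRNA-2 library 11-1 had the highest BMP4 (173.9 CPM) and the lowest TGFBR3 (46.8 CPM) of all 16.

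The shRNA knockdown left no detectable difference in the 10 genes, although NNT was 11.7-fold lower. In each of the 10 genes the NNT shRNA and scrambled shRNA libraries overlapped, where 3.19% of the 15201 genes tested did not overlap. None passed the threshold of 0.05 on the adjusted p in edgeR's quasi-likelihood test (each adjusted p = 1), none had an unadjusted p under 0.05, and DESeq2 called none; of all genes, 0.0197% (3 genes) passed. With the title code as a replicate block, 1 gene of all passed and again none of the 10. The log2 fold changes ran from -0.10 (SE 0.24) for TGFBR3 to 0.25 (SE 0.21) for INHA, with a median of -0.03 beside 0.01 over all genes tested.

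With siRNA-3 no member passed the threshold in the main fit either, but 3 of the 10 had groups that did not overlap. BMP4 libraries all lay below the scrambled siRNA libraries, and TGFBR1 and TGFBR3 libraries all above them, while 21.1% of all genes tested did not overlap in this comparison (10.6% higher, 10.5% lower). In edgeR's test 2.12% of all genes (323) passed. Of the 10 genes 3 had an unadjusted p under 0.05, beside 2706 of all 15201 genes. DESeq2 called none of the 10, beside 859 of 21444 genes. With the title code as a replicate block 1 of the 10, BMP4, passed (log2 fold change -0.486, edgeR adjusted p = 0.029), where 454 of all genes did. The median log2 fold change of the 10 was -0.06, beside 0.00 over all genes. The part of the higher adrenocortical marker sum of the siRNA-3 libraries in these and the following siRNA-3 values was not tested.

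Among the ligand genes, BMP4 (chromosome 14, 53949736 to 53958761, minus strand, GRCh38, 4 exons in its longest coding transcript) encodes a BMP that signals through SMAD1, SMAD5 and SMAD9. With siRNA-3 it stood at 74.9 CPM (11-1), 64.8 CPM (23-5) and 70.3 CPM (30-11), and with the scrambled siRNA at 102 CPM (16-1), 81.5 CPM (23-5) and 92.6 CPM (30-11). With siRNA-2 it stood at 114 CPM (11-12), 174 CPM (11-1) and 122 CPM (16-1). The siRNA-3 libraries were thus all low and the siRNA-2 libraries all high, with the controls between them. With the scrambled shRNA BMP4 stood at 123 (18-3), 137 (19-2) and 125.5 CPM (24-2), and with the NNT shRNA at 123 (18-3), 121 (19-2), 135.5 (2-3) and 115 CPM (24-2), which overlapped. The log2 fold change was -0.40 with siRNA-3 (SE 0.13, edgeR adjusted p = 0.111, 1.32-fold lower) and -0.06 with the shRNA (SE 0.12, adjusted p = 1). With siRNA-2 it was 0.57 (SE 0.13), and 0.36 without library 11-1. The summed chromaffin and neural markers had a like order over the siRNA groups: 33.0 to 43.9 CPM with siRNA-3, 43.9 to 50.3 CPM with the scrambled siRNA and 57.3 to 71.6 CPM with siRNA-2. They came from CHGA, CHGB and SYP, 3 of the 8 markers, with TH, DBH and STMN2 under 1 CPM everywhere, and their part in the BMP4 values was not tested.

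INHA (chromosome 2, 219569162 to 219575713, plus strand) encodes the alpha subunit of inhibin, which pairs with a beta subunit. Its level was low, from 2.68 CPM in an NNT shRNA library (2-3) to 5.34 CPM in another (19-2), so that group spanned the range of all 16 libraries. With siRNA-3 it stood at 3.24 to 5.33 CPM, with siRNA-2 at 4.72 to 5.20 CPM and with the scrambled siRNA at 4.78 to 5.08 CPM, all overlapping. The log2 fold change was -0.10 with siRNA-3 (SE 0.22, adjusted p = 0.855). INHBA and INHBB, the beta subunits that INHA pairs with, stood at no more than 1.05 and 1.06 CPM in any library; they were chosen after their values were seen.

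**Figure D2:**
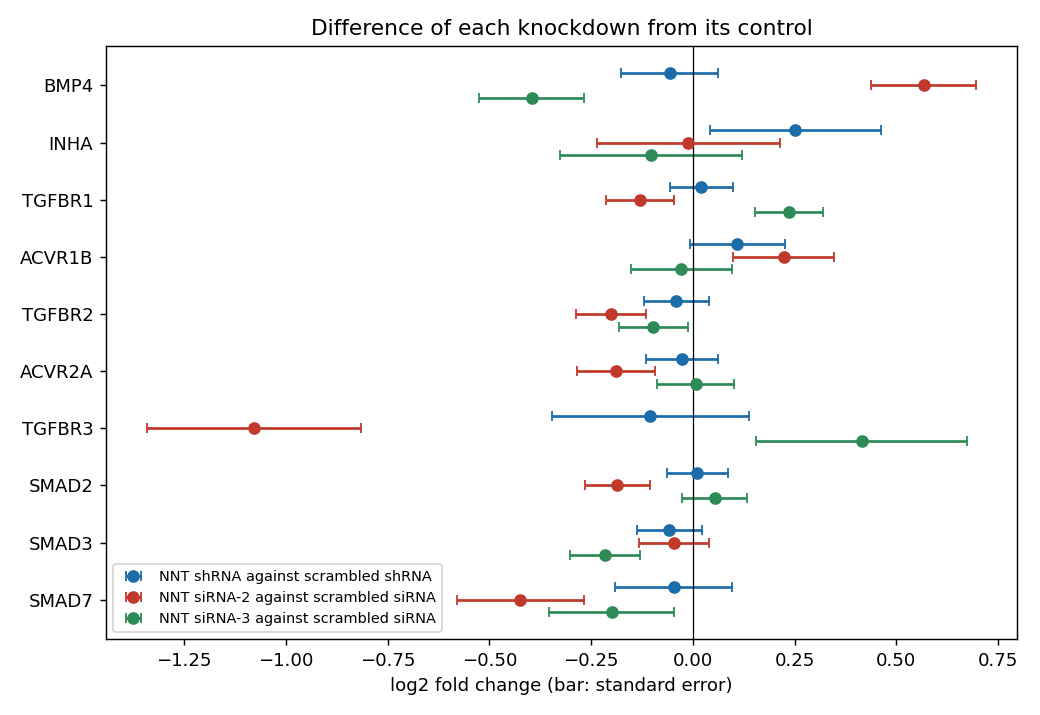
Log2 fold change of each of the 10 genes (vertical axis) in the 3 knockdowns against their scrambled controls (horizontal axis), with bars for the standard error; the siRNA-2 values took part in the choice of the genes. The shRNA values lie near 0, and TGFBR3 and BMP4 lie on opposite sides of 0 with siRNA-2 (-1.08 and 0.57) and with siRNA-3 (0.41 and -0.40).

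Among the type I receptors, TGFBR1 (chromosome 9, 99104038 to 99154192, plus strand) encodes the kinase that phosphorylates SMAD2 and SMAD3 after TGF-beta binds. With siRNA-3 it stood at 337.5 CPM (11-1), 324 CPM (23-5) and 307 CPM (30-11), and with the scrambled siRNA at 262 CPM (16-1), 283 CPM (23-5) and 277 CPM (30-11). All siRNA-3 libraries exceeded all controls. Its log2 fold change was 0.24 (SE 0.08, edgeR adjusted p = 0.14), 1.18-fold. With siRNA-2 TGFBR1 stood at 241 to 262.5 CPM, overlapping the controls (log2 fold change -0.13, and -0.12 without library 11-1), and with the shRNA at 239 to 283 CPM against 235 to 281 CPM. ACVR1B (chromosome 12, 51951667 to 51997078, plus strand), the type I receptor of activin, ranged from 83.0 to 146.5 CPM over all libraries. Its highest value was in siRNA-2 library 11-1, the other 2 siRNA-2 libraries reading 103 and 107 CPM. With siRNA-3 its log2 fold change was -0.03 (SE 0.12, adjusted p = 0.935).

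Both type II receptors varied little. TGFBR2 (chromosome 3, 30606502 to 30694142, plus strand), which binds TGF-beta first and activates TGFBR1, ranged from 104 to 141 CPM, the lowest value again in siRNA-2 library 11-1. Its log2 fold change was -0.10 with siRNA-3 (SE 0.09, adjusted p = 0.598) and -0.20 with siRNA-2 (SE 0.09), or -0.13 without library 11-1. ACVR2A (chromosome 2, 147844517 to 147930826, plus strand), a type II receptor of activin, ranged from 17.7 to 23.7 CPM. With siRNA-2 it stood at 18.3 to 20.1 CPM, below the scrambled siRNA libraries at 20.5 to 23.7 CPM, and with siRNA-3 at 20.1 to 23.2 CPM, overlapping them.

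The co-receptor TGFBR3 varied most among the 10 genes. TGFBR3 (chromosome 1, 91680343 to 91906335, minus strand, 17 exons in its longest coding transcript) encodes betaglycan, which presents TGF-beta to TGFBR2 and holds inhibin on ACVR2A, away from activin. With siRNA-3 it stood at 305 CPM (11-1), 372 CPM (23-5) and 266 CPM (30-11), and with the scrambled siRNA at 226 CPM (16-1), 248 CPM (23-5) and 233 CPM (30-11). With siRNA-2 it stood at 162 CPM (11-12), 46.8 CPM (11-1) and 125 CPM (16-1). The order was thus the reverse of that of BMP4: all siRNA-3 libraries were high and all siRNA-2 libraries low. With the scrambled shRNA it stood at 172 (18-3), 165 (19-2) and 164 CPM (24-2), and with the NNT shRNA at 157 (18-3), 146 (19-2), 140 (2-3) and 178 CPM (24-2), which overlapped. The log2 fold change was 0.41 with siRNA-3 (SE 0.26, edgeR adjusted p = 0.427, 1.33-fold higher). With siRNA-2 it was -1.08 (SE 0.26), and -0.71 without library 11-1. The spread within the siRNA-2 group was 52.9% of its mean, against a counting error of 1.78%, and 4.66% in the scrambled siRNA group.

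TGFBR3 and NNT did not follow 1 order over the knockdowns. The siRNA-3 and NNT shRNA libraries had like NNT levels (31.8 to 47.8 and 28.7 to 34.6 CPM), but TGFBR3 stood at 266 to 372 CPM in the former and at 140 to 178 CPM in the latter. Their scrambled controls already differed in TGFBR3, at 226 to 248 CPM (siRNA) and 164 to 172 CPM (shRNA). A direct comparison of these knockdown levels therefore mixes the knockdown with the difference between the controls. The effects against each group's own control are compared at the end of this paragraph. The siRNA-2 values took part in the choice of TGFBR3 and BMP4. Within siRNA-2, the library with the lowest NNT (11-1, 49.9 CPM) had the lowest TGFBR3 and the highest BMP4. The ratio of TGFBR3 to BMP4 counts in that library was 0.269, against 1.03 and 1.43 in the other siRNA-2 libraries. It was 1.03 to 1.55 in the 7 shRNA libraries, 2.21 to 3.04 with the scrambled siRNA and 3.78 to 5.75 with siRNA-3. Relative to the shRNA effect, the siRNA-3 effect differed by -0.34 for BMP4 (SE 0.18, adjusted p = 0.522), by 0.52 for TGFBR3 (SE 0.35, adjusted p = 0.638) and by 0.22 for TGFBR1 (SE 0.11, adjusted p = 0.529). None of the 10 genes passed in this test of the difference, where 0.046% of all genes did in edgeR (7 genes). None of the 10 had an unadjusted p under 0.05, beside 1570 of all 15201 genes, and DESeq2 called none of them.

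**Figure D3:**
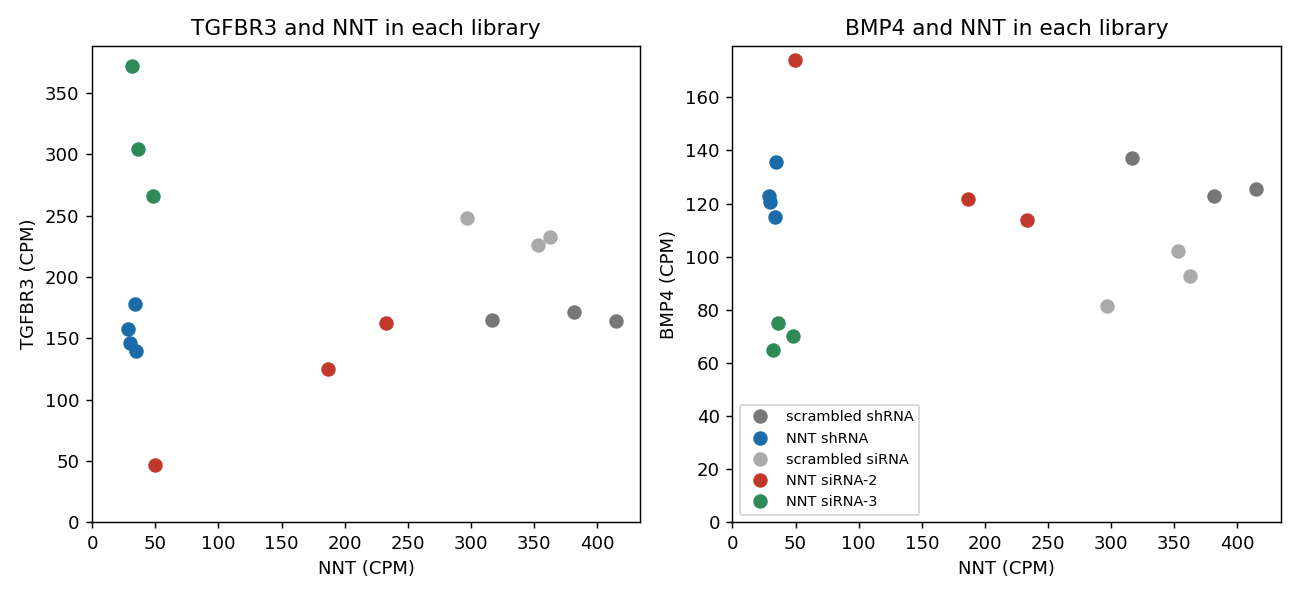
TGFBR3 (left) and BMP4 (right) on the vertical axis against NNT on the horizontal axis, both in CPM from 0, with 1 point for each of 16 libraries, coloured by group. Libraries with NNT under 50 CPM ran from 46.8 to 372 CPM for TGFBR3 and from 64.8 to 173.9 CPM for BMP4. The values of 46.8 and 173.9 CPM are both of siRNA-2 library 11-1, whose group took part in the choice of these genes. Without that library the ranges were 139.6 to 372 CPM and 64.8 to 135.5 CPM. The libraries with NNT under 50 CPM come from both siRNA and shRNA groups, whose scrambled controls differed in both genes without overlap.

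The SMAD genes differed less. SMAD2 (chromosome 18, 47808957 to 47931146, minus strand) and SMAD3 (chromosome 15, 67063763 to 67195195, plus strand) encode the SMADs that TGFBR1 and ACVR1B phosphorylate. SMAD2 ranged from 168 to 226.5 CPM, its lowest value in siRNA-2 library 11-1, and its log2 fold change was 0.05 with siRNA-3 (SE 0.08, adjusted p = 0.776) and -0.19 with siRNA-2 (SE 0.08), or -0.14 without library 11-1. SMAD3 stood at 83.8 CPM (11-1), 101 CPM (23-5) and 93.4 CPM (30-11) with siRNA-3 and at 120 CPM (16-1), 104 CPM (23-5) and 98.3 CPM (30-11) with the scrambled siRNA. These groups overlapped by library 23-5 of siRNA-3 (log2 fold change -0.22, SE 0.09, edgeR adjusted p = 0.194). In all other groups SMAD3 lay between 103 and 118 CPM. SMAD7 (chromosome 18, 48919853 to 48952052, minus strand), a feedback inhibitor that TGF-beta induces and that recruits ubiquitin ligases to TGFBR1, ranged from 9.64 to 16.9 CPM. It stood at 9.64 to 11.7 CPM with siRNA-2, below the scrambled siRNA libraries at 13.2 to 16.9 CPM (log2 fold change -0.42, SE 0.16, and -0.35 without library 11-1), and at 11.2 to 14.03 CPM with siRNA-3, overlapping them (-0.20, SE 0.15, adjusted p = 0.533).

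In the siRNA-2 contrast, 1 of the 10 genes (BMP4) lay above all controls, 3 (TGFBR3, SMAD7 and ACVR2A) lay below them and 6 overlapped. There 22.4% of all genes did not overlap (12% higher, 10.4% lower) and 1.97% passed in edgeR's test; nothing is read from the members' count, since this contrast took part in their choice. The median of the 10 log2 fold changes was -0.16, beside 0.01 over all genes, and -0.12 without library 11-1.

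The wider pathway was described by 6 lists with 105 genes (31 ligands, 15 receptors and co-receptors, 5 SMADs, 18 extracellular inhibitors and latency proteins, 14 intracellular regulators and 22 target genes), of which 75 passed the filter. With siRNA-3, 1 of the 75 passed as lower and 1 as higher, beside 1.26% and 0.862% of all genes. Of the 105 listed genes 7 passed in DESeq2, beside 859 of 21444 genes in all. With the title code as a replicate block 7 passed, beside 454 of 15201. With no filter on low counts 4 passed, beside 385 of 21444, and with only the groups compared 0, beside 56 of 14601. CHRD, which encodes chordin, a secreted BMP antagonist, fell from 2.52 (16-1), 2.43 (23-5) and 3.14 CPM (30-11) to 0.833 (11-1), 0.963 (23-5) and 1.69 CPM (30-11). Its log2 fold change was -1.19 (SE 0.28, edgeR adjusted p = 0.0338), 2.28-fold lower. SKIL, which encodes a repressor of SMAD2 and SMAD3, rose from 106 (16-1), 117.5 (23-5) and 89.6 CPM (30-11) to 163 (11-1), 140.5 (23-5) and 122 CPM (30-11). Its log2 fold change was 0.44 (SE 0.11, adjusted p = 0.0477), 1.36-fold higher. Both genes had groups that did not overlap. Each call held without siRNA-3 library 30-11 and was lost without any 1 of the other 5 libraries: CHRD then ran from -0.99 without siRNA-3 11-1 (adjusted p = 0.185) to -1.26 without scrambled 23-5 (0.0835), with -1.07 without siRNA-3 23-5, -1.23 without scrambled 16-1 and -1.07 without scrambled 30-11. SKIL ran from 0.34 without siRNA-3 11-1 (adjusted p = 0.263) to 0.54 without scrambled 23-5 (0.0641), with 0.45 without siRNA-3 23-5, 0.45 without scrambled 16-1 and 0.34 without scrambled 30-11. Both were also lost when only the groups compared were fitted (adjusted p = 0.103 and 0.151).

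Of the 75 genes, 50 had a log2 fold change below 0 with siRNA-3 and 25 above, with a median of -0.13 beside 0.00 over all genes. Among ligands 16 of 18 were below 0 (median -0.29), among target genes 14 of 17 (median -0.13) and among extracellular inhibitors and latency proteins 7 of 10 (median -0.28); among intracellular regulators 9 of 14 were above 0 (median 0.12) and among receptors 7 of 11 (median 0.11). Genes of the BMP branch near the threshold are given next, chosen after their values were seen. ID1 and ID3, which BMPs induce through SMAD1 and SMAD5, had log2 fold changes of -1.52 (SE 0.43, edgeR adjusted p = 0.0671) and -1.33 (SE 0.37, adjusted p = 0.0675). ID1 stood at 2.23, 1.45 and 6.25 CPM with siRNA-3 (11-1, 23-5 and 30-11) and at 11.9, 5.93 and 11.4 CPM with the scrambled siRNA (16-1, 23-5 and 30-11), so that library 30-11 of siRNA-3 lay just above control 23-5. SMAD6, the inhibitory SMAD of the BMP branch, stood at 8.25 to 11.9 CPM against 12.1 to 16.4 CPM with no overlap (log2 fold change -0.56, SE 0.17, adjusted p = 0.0932). NOG, the antagonist noggin, stood at 0.408 to 0.535 CPM against 0.648 to 1.20 CPM (-1.04, SE 0.33, adjusted p = 0.101). With siRNA-2, as a description, SMAD6 stood at 7.30 to 10.7 CPM, also below all scrambled siRNA libraries. There ID1, ID3 and NOG overlapped the controls. SMAD1 differed by -0.30 (SE 0.14, adjusted p = 0.284). ID2, the most abundant target gene, stood at 215 to 384 CPM against 270 to 411 CPM (-0.13, SE 0.21, adjusted p = 0.792).

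**Figure D4:**
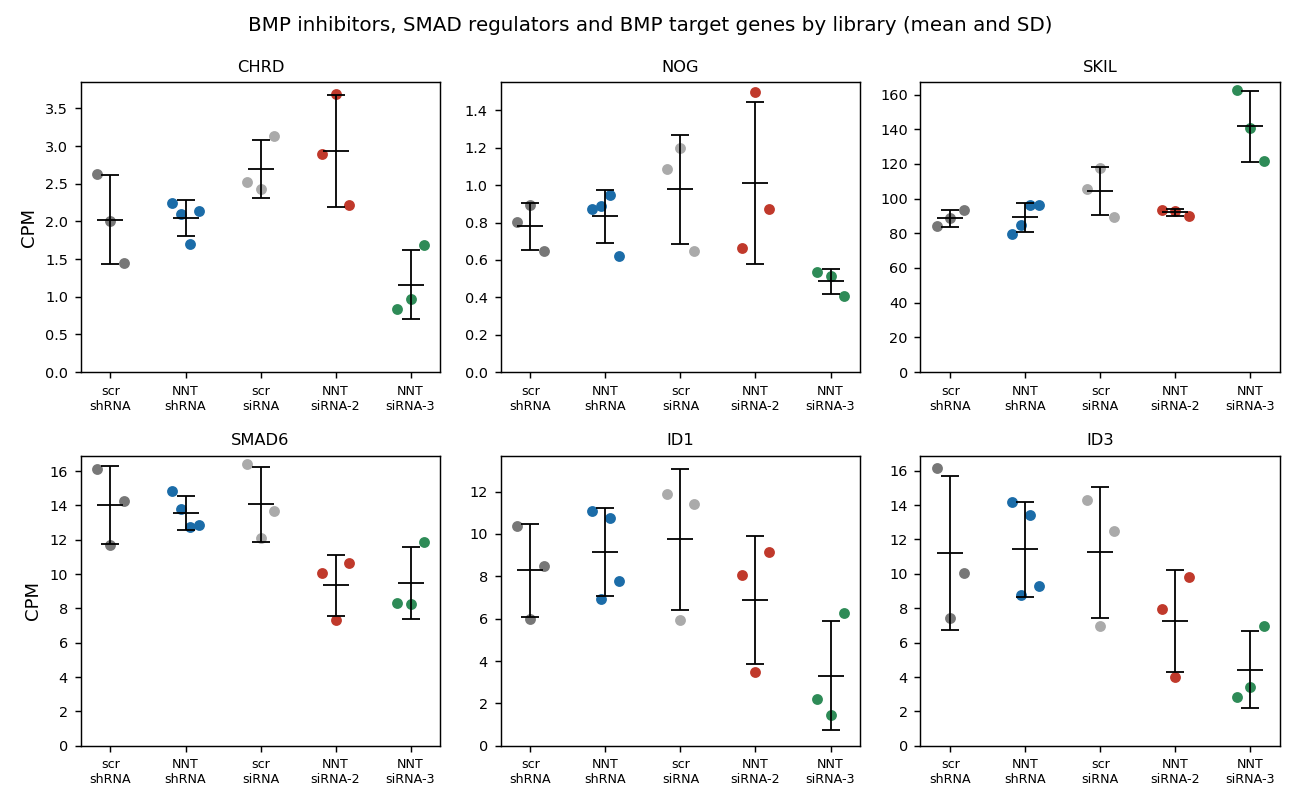
Level in CPM (vertical axis from 0) of CHRD, NOG, SKIL, SMAD6, ID1 and ID3, by library (points) with the group mean and SD, over the 5 groups (n = 4 for NNT shRNA, 3 for the others). CHRD, NOG, ID1 and ID3 had their lowest group means and SKIL its highest with siRNA-3. Only CHRD and SKIL passed the test there in the main fit.

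None of these genes passed in the shRNA comparison. Of the 75 genes 0 passed in edgeR, beside 0.0197% of all genes, and DESeq2 called 0. An unadjusted p under 0.05 was found for 3 of the 75, beside 217 of all 15201 genes. These were LTBP1, FN1 and CTGF, with log2 fold changes of -0.27, -0.66 and -0.48. CHRD differed by -0.01 (SE 0.25, adjusted p = 1), SKIL by 0.01 (SE 0.10), ID1 by 0.14 (SE 0.38) and ID3 by 0.02 (SE 0.33). In the test of the siRNA-3 effect against the shRNA effect CHRD differed by -1.18 (SE 0.37, adjusted p = 0.286) and SKIL by 0.43 (SE 0.15, adjusted p = 0.343), so a difference between the effects was not shown. Of the 75 genes 16 had an unadjusted p under 0.05, beside 1570 of all 15201 genes, 0 passed in edgeR and DESeq2 called 0.

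With siRNA-2, as a description, the 3 pathway genes past the same threshold were ligands and were higher, where 0.993% of all genes were. GDF15, a stress-induced ligand, stood at 0.978 CPM (11-12), 9.24 CPM (11-1) and 3.15 CPM (16-1), against 0.299 to 1.09 CPM with the scrambled siRNA, so it overlapped in library 11-12. INHBE, an activin beta subunit, stood at 1.135, 3.26 and 1.89 CPM (11-12, 11-1 and 16-1) against 0.648 to 0.798 CPM. GDF11 stood at 184, 248 and 193 CPM in the same libraries against 147.5 to 156 CPM. Library 11-1 was the highest of the 3 in each of these genes. Their log2 fold changes were 2.68 for GDF15, 1.55 for INHBE and 0.46 for GDF11, and 1.62, 1.11 and 0.32 without library 11-1. None of the 3 was past the threshold without that library, without any 1 of the scrambled siRNA libraries or with only the groups compared. INHBE and GDF11 were not past it without library 16-1 of siRNA-2 either. GDF11 was also not past it with DESeq2's size factors (edgeR adjusted p = 0.0502) or with the replicate block (0.0607).

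The control groups themselves differed. Between scrambled siRNA and scrambled shRNA libraries 5 of the 10 genes did not overlap: BMP4 was low (81.5 to 102 against 123 to 137 CPM) and TGFBR3 high (226 to 248 against 164 to 172 CPM) with the scrambled siRNA, as were INHA (4.78 to 5.08 against 3.06 to 4.09 CPM), ACVR1B (91.2 to 111 against 83.0 to 88.1 CPM) and ACVR2A (20.5 to 23.7 against 18.9 to 19.7 CPM). Among all genes 24.2% did not overlap (12.5% higher, 11.7% lower). None of the 10 passed in edgeR, where 1.74% of all genes (264) did. An unadjusted p under 0.05 was found for 1 of the 10, beside 2557 of all 15201 genes. DESeq2 called 1 of the 10, beside 648 of 21444 genes. BMP4 differed by -0.48 (SE 0.13, adjusted p = 0.0649) and TGFBR3 by 0.50 (SE 0.26, adjusted p = 0.342). BMP4 passed with no filter on low counts (adjusted p = 0.039), in DESeq2 (0.0198) and with only these groups in the fit (0.0238), where TGFBR3 passed too (0.00822). The siRNA and shRNA controls differ in delivery and in all that goes with it, which cannot be told apart.

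Of the 75 wider pathway genes, 6 were lower with the scrambled siRNA and 0 higher, beside 1.05% and 0.684% of all genes. FN1, which encodes the matrix protein fibronectin, stood at 3.95, 7.89 and 6.23 CPM (16-1, 23-5 and 30-11) against 19.9, 22.2 and 27.1 CPM with the scrambled shRNA (18-3, 19-2 and 24-2), a log2 fold change of -1.92 (SE 0.24, edgeR adjusted p = 0.000688). CTGF, a matricellular target of TGF-beta, stood at 0.553 to 0.652 CPM against 1.69 to 2.70 CPM (-1.93, SE 0.26, adjusted p = 0.00101). Both calls held without any 1 library. THBS1, which encodes thrombospondin and activates latent TGF-beta, differed by -1.78 (SE 0.36, adjusted p = 0.019), LTBP1 by -0.48 (SE 0.10, adjusted p = 0.021) and the decoy receptor BAMBI by -0.99 (SE 0.21, adjusted p = 0.0242). The sixth was FST, which encodes the activin antagonist follistatin, at -1.15 (SE 0.25, adjusted p = 0.0248). Without 1 library, the FST call was lost for scrambled shRNA 19-2 and scrambled siRNA 16-1 and 23-5, the THBS1 call for these 3 and scrambled shRNA 24-2, and the BAMBI and LTBP1 calls for each library but scrambled siRNA 30-11. The largest adjusted p was 0.13 for FST (without scrambled shRNA 19-2), 0.107 for THBS1 and for LTBP1 (without scrambled siRNA 23-5) and 0.142 for BAMBI (without scrambled siRNA 23-5). The sum of the 6 fibroblast markers was also higher in the shRNA libraries. It was 6.98 to 13.5 CPM with the scrambled shRNA and 4.95 to 9.10 CPM with the NNT shRNA. With the scrambled siRNA, siRNA-2 and siRNA-3 it was 1.23 to 2.19, 1.19 to 2.19 and 0.867 to 1.43 CPM. Of the 6 only COL3A1 exceeded 1 CPM, at 5.89 to 12.5 CPM with the scrambled shRNA against 0.706 to 1.74 CPM with the scrambled siRNA. Between these controls LUM and THY1 were also higher with the shRNA, PDGFRA and PDGFRB overlapped, and POSTN had no count. The part of these markers in these differences was not tested.

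**Figure D5:**
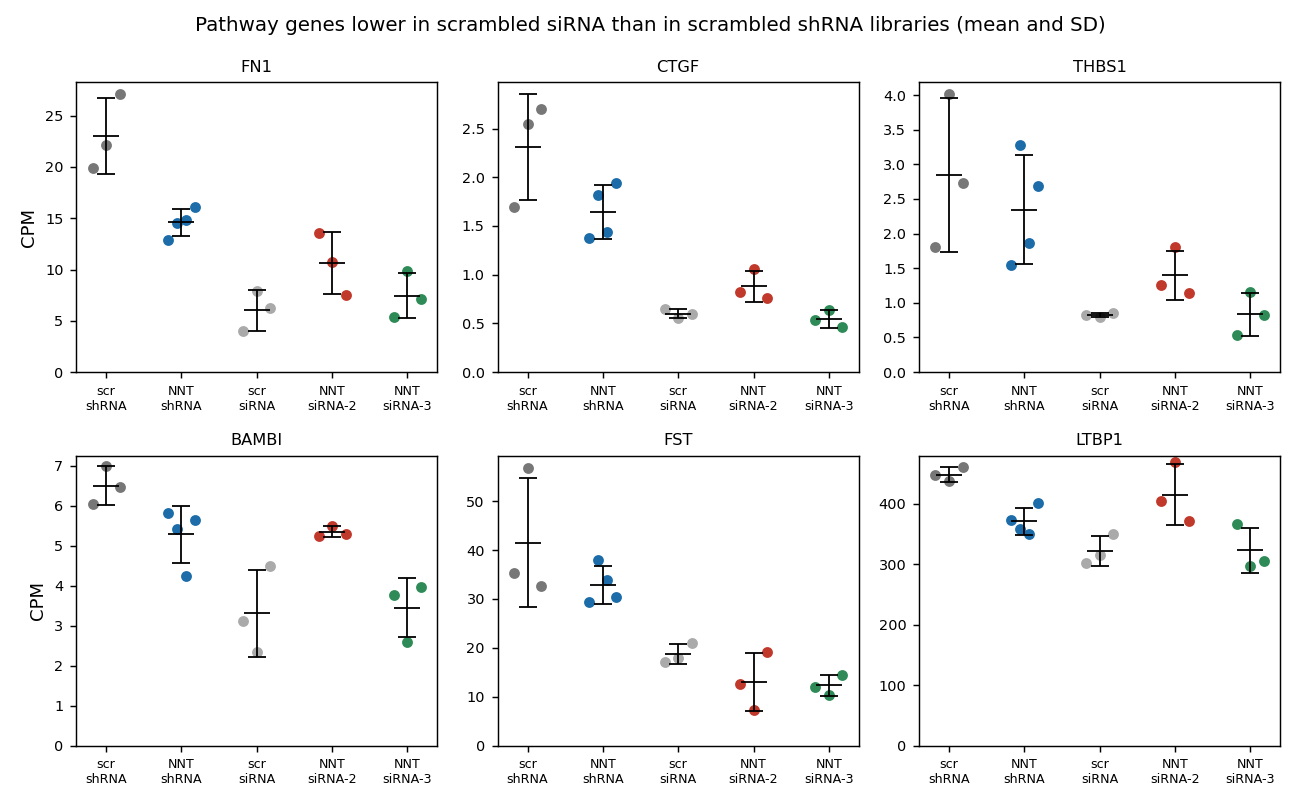
Level in CPM (vertical axis from 0) of the 6 wider pathway genes that were lower in scrambled siRNA than in scrambled shRNA libraries, by library (points) with the group mean and SD, over the 5 groups (n = 4 for NNT shRNA, 3 for the others). The scrambled shRNA group had the highest mean in all 6 panels, 23.0 CPM for FN1 against 6.02 CPM with the scrambled siRNA.

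Over the 16 libraries, TGFBR3 and BMP4 ran against each other on the log2 scale (Pearson correlation -0.894). TGFBR3 ran with SMAD2 (0.796), ACVR2A (0.709) and TGFBR1 (0.69), while BMP4 ran against TGFBR1 (-0.811). The siRNA-2 libraries took part in the choice of TGFBR3 and BMP4. Over the other 13 libraries, an alternative chosen after seeing the data, these values were -0.958, 0.594, 0.764, 0.843 and -0.825. The libraries share groups and controls, so these values describe the 5 groups more than independent samples. The genes most like TGFBR3 were CNOT6 (correlation 0.972, Spearman 0.932), ANO6 (0.963, Spearman 0.871) and PPP6C (0.962, Spearman 0.847). Within the 7 shRNA libraries these were 0.6, -0.304 and 0.34, and within the 9 siRNA libraries 0.988, 0.992 and 0.992, so the likeness rests on the siRNA libraries. BMP4 was most like GLIPR1 (0.937), NFE2L3 (0.936) and GOLGA7B (0.925), which gave 0.702, 0.186 and 0.225 within the shRNA libraries. INHA was most like RASL10B (0.864), TMEM184B (0.843) and CDC42EP1 (0.843), which were 0.979, 0.895 and 0.886 within the shRNA libraries. For the other genes, the most alike gene reached 0.943 for TGFBR1 (PRKAA1), 0.936 for ACVR1B (ATP6V0B), 0.918 for ACVR2A (CREBRF), 0.897 for SMAD2 (IFNAR1), 0.894 for SMAD3 (RALGDS), 0.864 for SMAD7 (RNF182) and 0.86 for TGFBR2 (CCDC117). Without the 2 libraries farthest from each gene's median, an alternative chosen after seeing the data, the 16 correlations ran from 0.654 (TGFBR2 with CCDC117) to 0.906 (SMAD2 with IFNAR1).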

How the data were processed

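Per the labels, poly(A) RNA of NCI-H295R cells was made into stranded libraries and 16 libraries were pooled. The authors deposited raw counts, whole numbers of reads for each gene, separately for each of 4 lanes. Per the submitters' processing notes, STAR 2.4.2a, HTSeq 0.6.1p1, DESeq2 1.14.1 and hg19 were used; on the annotation, strand setting and overlaps nothing is given in the sources used here, and genes that overlap another are uncertain.

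The lanes of a library were summed: their chi-square over its degrees of freedom ran from 0.976 to 1.05, and that of 2 libraries in 1 group from 8.11 to 36.7. Reads in no gene (11.3 to 16.5%), ambiguous reads (1.05 to 1.33%) and reads with several alignments (7.47 to 8.17%) were left out. Groups came from the labels, which speak of triplicates although 4 libraries carry the NNT shRNA label. The title codes are unexplained.

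All libraries entered 1 edgeR 4.0.16 quasi-likelihood fit (R 4.3.3) with a term per group, TMM scaling, a minimum count of 10 and Benjamini-Hochberg adjustment over 15201 genes at 0.05, with 11 residual degrees of freedom. CPM used TMM-scaled totals, and CPM per kb the summed exon length in GENCODE for GRCh38, whose coordinates are printed; the counts were made on another build. SEs were derived from the F statistics. Correlations used log2 CPM with a prior count of 2. The test was also run on simulated counts, with the outcome not reported here.

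Libraries of 1 code were compared by their deviations from group means over 10154 genes. In the shRNA groups the 3 same-code pairs correlated by 0.19, 0.232 and 0.316. NNT shRNA 2-3 and scrambled shRNA 24-2, with unlike codes, gave 0.265. Between siRNA-3 and the scrambled siRNA the same-code pairs gave 0.545 (23-5) and 0.585 (30-11). The same-code pairs with siRNA-2 gave -0.073 (11-1) and 0.046 (16-1). The main fit took no codes as pairs, in the shRNA or the siRNA groups, and the codes entered only the replicate block. The main siRNA-3 values therefore leave out the likeness within 23-5 and within 30-11.

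The members, lists, tests and alternatives were chosen with earlier results of these data known. Named genes were the members and NNT; in each comparison the up to 5 pathway genes past the threshold with the smallest p; the 2 genes of each list with the highest level per length; and the 3 most alike genes (1 for most members) among genes averaging 3 or more in log2 CPM. Genes outside this rule are marked in the text; FST is named as the sixth call. Alternatives were DESeq2's size factors, no filter, DESeq2 1.42.0, a fit of the compared groups alone, a replicate block by title code and leaving out each library.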

Additional observations from a re-analysis of the deposited data

Results flagged for a closer look

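BMP4 and TGFBR3 moved in opposite directions under the siRNAs. For BMP4 every siRNA-2 library lay above and every siRNA-3 library below the scrambled siRNA libraries, and the siRNA-3 log2 fold change minus that of siRNA-2 was -0.96. For TGFBR3 every siRNA-2 library lay below and every siRNA-3 library above the controls, and the difference was 1.49. The siRNA-2 values took part in choosing both genes and the control libraries were shared, so the difference was not tested. Without siRNA-2 library 11-1 the siRNA-2 values were 0.36 for BMP4 and -0.71 for TGFBR3. In the 11 cases of a gene in the 4 NNT shRNA libraries no library stood far from the other 3.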

How the results depend on the processing

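Counts of genes called moved by over 1.5 times under some settings. With the shRNA 3 genes became 1 with the title code as a replicate block. With siRNA-3, 323 became 56 with only the groups compared and 859 in DESeq2. With siRNA-2, 299 became 464 with no filter, 1 with only the groups compared, 490 with the replicate block and 905 in DESeq2. For the difference of effects, 7 became 29 with no filter and 117 in DESeq2, and between the controls 264 became 648 in DESeq2. Leaving out 1 library gave 1 to 2 genes for the shRNA, 69 to 530 for siRNA-3, 2 to 619 for siRNA-2, 0 to 42 for the difference and 32 to 456 between the controls. The cause was not tested. Of the 10 members, 0 passed in any fit without 1 library in the tested comparisons. With siRNA-3, 1 (BMP4, -0.486, adjusted p = 0.029) passed with the block; siRNA codes paired libraries for 23-5 (0.545) and 30-11 (0.585), not for 16-1 (0.046) or 11-1 (-0.073). Between the controls 1 passed with no filter (BMP4, -0.48), 2 with only the groups compared (BMP4, -0.484; TGFBR3, 0.494) and 1 in DESeq2 (BMP4, -0.479); no replicate block can be fitted there. The block changed no other member's call.

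Signs turned only near 0: SMAD2 (-0.002) and SMAD7 (0.006) with the shRNA under the block, and ACVR2A with siRNA-3 with only the groups compared (-0.004). Without 1 library the shRNA values ran from -0.029 to 0.105 for TGFBR1, -0.082 to 0.001 for TGFBR2, -0.046 to 0.007 for ACVR2A, -0.008 to 0.029 for SMAD2 and -0.206 to 0.104 for SMAD7. With siRNA-3 they ran from -0.22 to 0.098 for INHA, -0.164 to 0.041 for ACVR1B, -0.034 to 0.079 for ACVR2A and -0.011 to 0.131 for SMAD2. The difference ran from -0.01 to 0.105 for ACVR2A, -0.021 to 0.121 for SMAD2 and -0.303 to 0.007 for SMAD7, and the controls from -0.008 to 0.134 for SMAD2 and -0.133 to 0.02 for SMAD3. The correlation of TGFBR3 with ANO6 was -0.304 in the 7 shRNA libraries. INHA had the fewest reads, with a counting error of up to 8.97%.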
